A study of Mus musculus with 12 samples.

Results

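The effect of a truncated *Asxl1* transgene was examined in LK cells that had lost 1 allele of *Kdm6b*. LK cells are bone marrow cells without the surface markers of mature lineages that carry the stem cell factor receptor cKit; they hold the hematopoietic stem cells (HSCs) and the progenitors derived from them. The 3 libraries of *Asxl1*Y588XTg *Kdm6b*Δ/+ mice (DM) were compared with the 3 libraries of *Kdm6b*Δ/+ mice (KD), 6 of the 12 libraries of the series, and the members were chosen by these genotypes alone. The other 6 libraries came from *Asxl1*Y588XTg (AS) and WT mice, 3 of each, and share no library with the comparison of DM with KD. All mice were 12 months old and of the C57BL/6 strain by the labels, and each library came from 1 mouse. Mice of both KD and DM carried *Mx1Cre* and a floxed *Kdm6b* allele that was deleted after pI:pC, a mimic of viral RNA that triggers interferon, had been injected. For the AS and WT mice of the RNA sequencing, the paper's methods do not state whether they carried *Mx1Cre* or received pI:pC. *Mx1Cre* also acts outside blood cells, and the promoter that drives the *Asxl1* transgene is not given in the sources used here. The label of the DM libraries reads only double mutation, and their genotype was taken from the design text of the series.

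ASXL1 is a chromatin protein that partners with the deubiquitinase BAP1 and is linked to Polycomb repressive complex 2 (PRC2), which writes the repressive histone mark H3K27me3. Truncating mutations of *ASXL1* are frequent in myeloid malignancies. KDM6B is a demethylase that removes H3K27me3, so the cross of both mutants asks how far the expression changes of the transgene appear where 1 copy of a demethylase is missing.

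Between 14451522 and 23482563 reads were counted on genes in the 6 libraries, and the 10 most abundant genes took 11.4% to 13.3% of them. The correlation of log2 values between libraries ran from 0.969 to 0.986 as a description over genes. *Kit*, which encodes cKit, had a normalized count of 6090 ± 290.2 (SD, n = 3 mice) in KD and 6097 ± 263 in DM, and the T cell gene *Cd3e* stood at 3.08 ± 3.35 and 5.67 ± 5.50. The low *Cd3e* does not describe other mature cells. The plasma cell gene *Igha* was at 13673 ± 2376 in KD and 26516 ± 3806 in DM. Normalized counts here are raw counts scaled by TMM factors to a library of mean size. KD replicate 2 lacked Y-linked transcripts, which were present in 2 of 3 KD libraries and 3 of 3 DM libraries. *Xist*, the RNA that silences 1 X chromosome in females, was at 12244 in KD replicate 2 and between 15.0 and 26.8 in the other 5 libraries. The counts of called genes and of list members below were therefore also computed without that library.

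The genes that define the genotypes were read first. *Kdm6b*, on chromosome 11 of mm10 from 69398508 to 69413675, had normalized counts of 1622, 1529, and 1346 in KD and 1649, 1873, and 1910 in DM. The groups did not overlap, but the lowest DM and the highest KD library lay close together. The log2 fold change was 0.27 (standard error 0.09, 95% interval 0.08 to 0.46), and the adjusted p (edgeR, quasi-likelihood, Benjamini-Hochberg) was 0.263, so *Kdm6b* was not called between groups that both carry the deletion. *Kdm6bos* overlaps it on the opposite strand, and reads of the 2 cannot be told apart where strand was not used in counting. Mouse *Asxl1* gave counts of 3191, 2796, and 2883 in KD and 3025, 3068, and 3244 in DM. Its log2 fold change of 0.08 (standard error 0.07, 95% interval −0.08 to 0.24) was within the spread between mice, and these counts over the whole gene do not single out the transgene. *Kdm6a*, the X-linked relative of *Kdm6b*, had counts of 1268 and 1334 in KD replicates 1 and 3, 2097 in KD replicate 2, which lacks Y-linked transcripts, and 1259 to 1303 in DM.

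Of 15825 genes tested, 9 were higher and 6 lower in DM than in KD, at an adjusted p under 0.05 and a fold above 1.5. These are 0.0569% and 0.0379% of the genes tested, 0.0948% together. Without the fold criterion 16 genes (0.101%) passed, the additional gene being *Txnip*, which encodes an inhibitor of thioredoxin, at a log2 fold change of 0.52. An unadjusted p under 0.05 was given to 1932 genes (12.2%), 1035 of them higher (6.54%) and 897 lower (5.67%). For 1475 genes (9.32%) all DM libraries lay above all KD libraries, and for 1515 (9.57%) all lay below. The number called depended on single libraries and on the tool. Without KD replicate 2 the counts were 26 higher and 8 lower, with 13 of the 15 genes among them. The higher and lower counts were 17 and 5 without DM replicate 2, 3 and 2 without DM replicate 1, and 5 and 6 without KD replicate 3, while DESeq2 on the same 6 libraries called 87 and 17 genes, among them all 15.

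Among the called genes, the largest changes were those of a pair of neighboring genes. *Evc* and *Evc2* encode partner proteins at the base of the primary cilium that act in Hedgehog signaling. *Evc2* had normalized counts of 3.77, 6.94, and 4.15 in KD and 78.9, 61.0, and 93.9 in DM. *Evc* had 6.28, 11.9, and 6.23 in KD and 73.8, 78.0, and 93.9 in DM. Each DM library was several times above the highest KD library for both genes. The log2 fold changes were 3.92 (standard error 0.37, adjusted p = 0.00134) for *Evc2* and 3.29 (standard error 0.33, adjusted p = 0.00174) for *Evc*, from edgeR's quasi-likelihood test. Raw counts in KD were only 3, 7, and 4 for *Evc2* and 5, 12, and 6 for *Evc*. These lie near the floor, so the size of both folds is uncertain. Both genes passed the filter on low counts through groups with higher counts than KD. *Evc* lies on chromosome 5 of mm10 from 37289098 to 37336894 on the minus strand, and *Evc2* from 37338499 to 37425055 on the plus strand, so that their starts face each other across 1605 bases. *Evc* and *Evc2* were each other's only called neighbor within 500 kb. *Evc* also overlaps *Crmp1* on the opposite strand and *Gm42935*, and *Evc2* overlaps *Gm15732*, which leaves reads in the overlaps uncertain.

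The promoters of this pair are shown because both genes moved together from facing starts. The sequences are from RefSeq (GRCm38.p6), 250 bases before to 50 bases after each start, written 5′ to 3′ on the strand of the gene. *Evc* is chr5:37336832-37337131 (minus strand) and *Evc2* is chr5:37338228-37338527 (plus strand). Capitals mark the longest run of letters that both windows hold, 13 letters, which reads GCATGCTCAGTGC on the strand of *Evc* and GCACTGAGCATGC on the strand of *Evc2*.
Evc: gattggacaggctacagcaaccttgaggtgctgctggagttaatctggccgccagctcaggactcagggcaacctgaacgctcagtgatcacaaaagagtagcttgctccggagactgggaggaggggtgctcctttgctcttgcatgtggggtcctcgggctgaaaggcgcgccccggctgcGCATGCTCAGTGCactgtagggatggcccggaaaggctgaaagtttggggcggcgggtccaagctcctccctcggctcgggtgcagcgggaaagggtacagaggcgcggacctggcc
Evc2: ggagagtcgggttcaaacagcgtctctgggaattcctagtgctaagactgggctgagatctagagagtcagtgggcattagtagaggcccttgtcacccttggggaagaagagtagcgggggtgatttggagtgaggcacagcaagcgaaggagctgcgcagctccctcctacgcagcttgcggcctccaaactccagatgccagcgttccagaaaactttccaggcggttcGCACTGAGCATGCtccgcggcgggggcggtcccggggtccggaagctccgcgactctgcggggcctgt
The run was found after the pair had been chosen, and 10 of 32851 promoters of the same length (0.0304%) hold it on either strand. Of the 8 tested genes with it, 2 had an unadjusted p under 0.05 in DM against KD, and these are *Evc* and *Evc2* themselves. The windows hold 16 and 19 CG pairs, against a median of 7 over all promoters. A shared run of letters is a description and not a binding site.

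Among the other genes that were higher in DM, several encode surface receptors and channels. *Clec1a*, a C-type lectin-like receptor on chromosome 6 from 129424772 to 129452000, had 17.6, 20.8, and 28.0 normalized counts in KD and 99.6, 70.0, and 88.7 in DM (log2 fold change 1.95, standard error 0.28, adjusted p = 0.0164). *Trpc6*, a calcium-permeable channel on chromosome 9 from 8544142 to 8680741, had 39.0, 60.5, and 40.5 in KD and 159, 97.0, and 148 in DM (log2 fold change 1.52, standard error 0.25, adjusted p = 0.0426). *Itga2b*, which encodes the integrin CD41 of megakaryocytes and platelets, had 856, 787, and 790.1 in KD and 1414, 1089, and 1383 in DM (log2 fold change 0.68, standard error 0.10, adjusted p = 0.0184). For all 3 genes every DM library exceeded every KD library, with DM replicate 2 the lowest of its group. *Sh3pxd2b*, a scaffold of podosomes, had 156, 191, and 187 in KD and 331, 320.0, and 443 in DM (log2 fold change 1.03, standard error 0.15, adjusted p = 0.0184).

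The remaining genes that were higher are known from mature cells. *Cd163*, a scavenger receptor of macrophages for hemoglobin bound to haptoglobin, had 176, 227, and 228 normalized counts in KD and 489.8, 469, and 376 in DM (log2 fold change 1.08, standard error 0.14, adjusted p = 0.008). *Jchain*, which joins the units of polymeric IgA and IgM, had 3829, 3289, and 3182 in KD and 6461, 6721, and 5053 in DM (0.83, standard error 0.11, adjusted p = 0.0158). *Ighv1-64*, a variable segment of the immunoglobulin heavy chain, had 62.8, 51.6, and 57.1 in KD and 143, 224, and 162 in DM (1.63, standard error 0.21, adjusted p = 0.008). Its reads may be shared with other segments of the same family. In RNA from a mixture of cells, more cells of a type and more RNA per cell cannot be told apart. The 9 tested plasma cell markers summed to 20836 to 25674 normalized counts in KD and to 33446 to 42989 in DM, and their part in these differences was not tested. Of these markers, *Igha* stood at 16169, 11439, and 13409 in KD and 23412, 30763, and 25373 in DM, without overlap (log2 fold change 0.96, standard error 0.14, adjusted p = 0.0573), whereas *Ighg2c* was at 890 ± 354 and 410 ± 270.3 (SD, n = 3), and the median of the list was −0.11. *Mzb1* and *Tnfrsf17* did not pass the filter on low counts. The 19 markers of monocytes, macrophages, and dendritic cells summed to 22567 to 25172 in KD and 21547 to 25507 in DM, overlapping ranges. Of these 19, 14 had positive values, and 1 was higher with an unadjusted p under 0.05. Without KD replicate 2, 16 were positive, and 7 (36.8%) were higher with such a p, against 7.05% of all genes. In that fit 1 (5.26%) was lower with such a p, against 6.02% of all genes, and the median was 0.20.

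**Figure D1:**
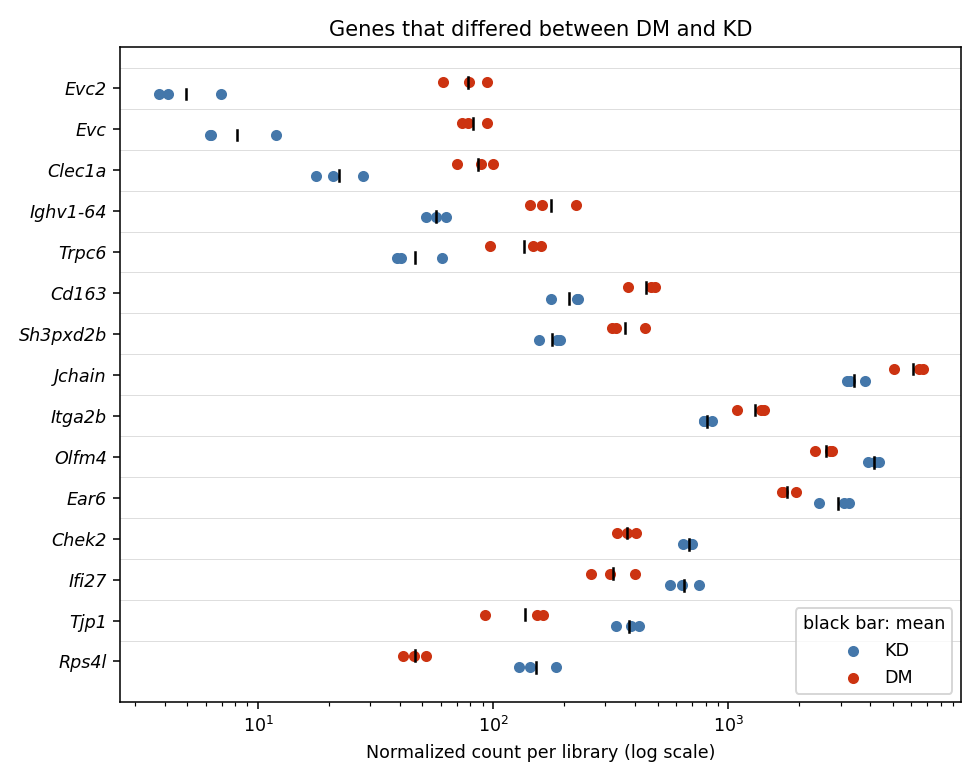
Normalized count (horizontal, log scale) of the 9 genes that were higher and the 6 that were lower in DM than in KD, ordered by fold change; each point is 1 library of 1 mouse and each black bar a group mean of 3. For *Evc2*, at the top, the 3 DM libraries lie between 61.0 and 93.9 and the 3 KD libraries between 3.77 and 6.94, and for none of the 15 genes do the groups overlap.

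The 6 genes that were lower in DM include genes of granulocytes, of the DNA damage response, and of the interferon response. *Chek2*, the checkpoint kinase of the DNA damage response on chromosome 5 from 110839979 to 110874145, had 638, 702, and 697 normalized counts in KD and 369.6, 405, and 336 in DM, and the replicates of each group were close together. Its log2 fold change was −0.87 (standard error 0.10, adjusted p = 0.00495, edgeR's quasi-likelihood test), and none of the 12 tested genes within 500 kb of *Chek2* was called. *Olfm4*, a glycoprotein of neutrophil granules, had 4195, 4386, and 3942 in KD and 2327, 2748, and 2714 in DM (log2 fold change −0.68, standard error 0.08, adjusted p = 0.00495). *Tjp1*, which encodes the junction scaffold ZO-1, had 417, 386, and 331 in KD and 153, 92.0, and 163 in DM (log2 fold change −1.46, standard error 0.19, adjusted p = 0.0125). Here again all DM libraries were below all KD libraries. *Ear6*, a ribonuclease of eosinophils, had 3256, 3092, and 2418 in KD and 1690, 1945, and 1700.1 in DM (log2 fold change −0.71, standard error 0.11, adjusted p = 0.0328). *Ifi27*, an interferon-induced gene on chromosome 12 from 103434211 to 103440239, had 567, 749, and 635 in KD and 260.4, 314, and 399 in DM (log2 fold change −1.01, standard error 0.16, adjusted p = 0.0426). *Rps4l* had 128, 184, and 143 in KD and 41.3, 46.0, and 51.6 in DM (log2 fold change −1.72, standard error 0.21, adjusted p = 0.00625). The annotation calls *Rps4l* a transcribed processed pseudogene, on chromosome 6 from 148354656 to 148355598 within *Tmtc1* on the opposite strand, so its reads may be shared with close copies of the ribosomal protein gene. The next genes in order of p among those with lower values in DM and an average of 100 or more normalized counts were *Ugt8a*, with −1.23 on the log2 scale (standard error 0.23, adjusted p = 0.0647), and *Epx*, with −0.57 (standard error 0.10, adjusted p = 0.0667), and neither was called.

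The same transgene was then read on the background with both *Kdm6b* alleles, where AS was compared with WT in 6 other libraries. Since *Mx1Cre* and pI:pC are not stated for AS and WT, the 2 comparisons may differ in more than *Kdm6b*. That comparison gave 250 genes higher (1.58%) and 5 lower (0.0316%) among the same 15825 genes. Of the 15 genes called in DM against KD, 13 had the same sign in AS against WT, 10 of these also with an unadjusted p under 0.05, and 6 were called there. Across the whole set of 15825, fold changes on both backgrounds were only loosely related, with a Pearson r of 0.34 and a Spearman rho of 0.15. The 13 of 15 therefore do not describe genes at large. The genes called on both backgrounds were *Evc2*, *Evc*, *Clec1a*, *Trpc6*, *Chek2*, and *Rps4l*. Their log2 fold changes in AS against WT were 3.42, 4.05, 2.60, 1.77, −0.67, and −1.82, in that order. For *Cd163* and *Jchain*, which were higher in DM, the values in AS against WT were −0.14 and −0.02, with standard errors of 0.41 and 0.66. *Ifi27* and *Ighv1-64* stood at −0.12 and 0.23 there. None of the 15 genes passed the test of the difference between both backgrounds. An unadjusted p under 0.05 in that test was given to *Ifi27* (0.0178), *Ighv1-64* (0.0249), *Tjp1* (0.0265), *Cd163* (0.0299), and *Olfm4* (0.032), with adjusted p values of 0.616 to 0.688.

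Read the other way, the 250 genes that were higher in AS than in WT mostly had the same sign in DM against KD, with smaller values in 247 of them. These genes were chosen for high values in AS against WT, which favors smaller values in any other comparison. The 247 therefore do not by themselves show a weaker effect in DM against KD. Of these genes, 234 (93.6%) had a positive log2 fold change in DM against KD, where 50.3% of all tested genes did. The median was 0.83 in DM against KD, where the median of all genes tested was 0.0018. In AS against WT the median of the 250 genes was 2.01, a value that the choice of these genes fixed. For 122 of them all DM libraries lay above all KD libraries, against 9.32% of all genes, and 125 had an unadjusted p under 0.05, against 6.54%. Only 4 of the 250, and 4 of the 9 genes higher in DM, were called in both comparisons. Summed over the 250 genes, normalized counts ran from 31867 to 32354 in KD and from 34962 to 46786 in DM. The median was 0.59 without DM replicate 3. It was 0.53 for the genes called higher in AS anew after a restriction to a mean count of at least 50. Without KD replicate 2, 227 of the 250 were positive and 120 had an unadjusted p under 0.05. Of the 5 genes lower in AS, 4 had a negative sign in DM against KD.

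**Figure D2:**
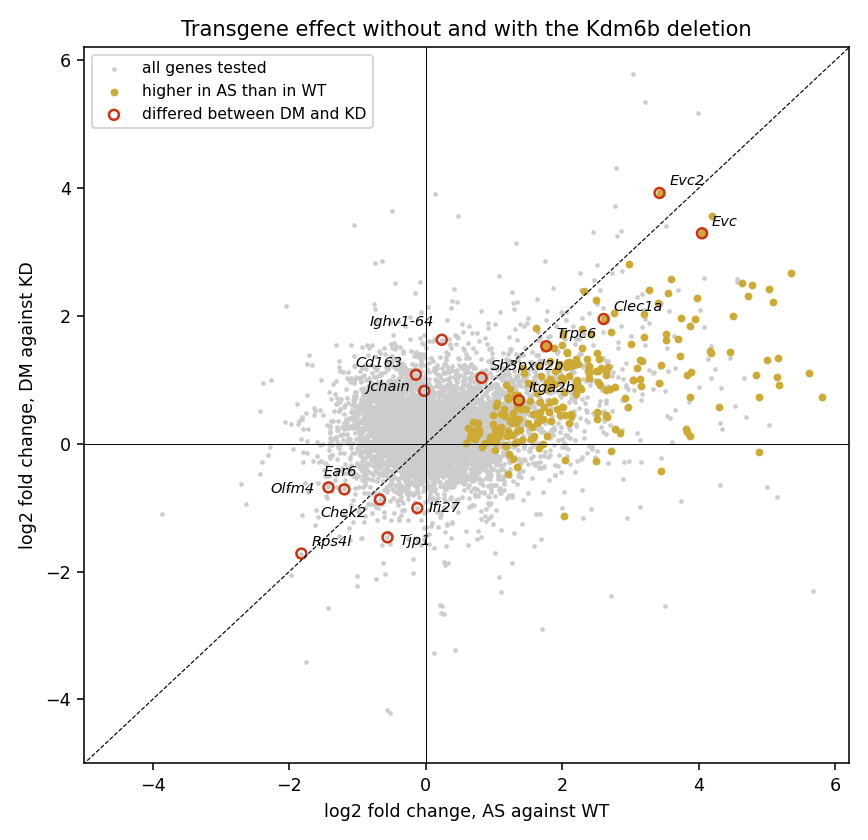
Log2 fold change of the transgene without the *Kdm6b* deletion (AS against WT, horizontal) and with it (DM against KD, vertical); each point is a gene, gold points are the 250 genes higher in AS than in WT, red circles the 15 genes called in DM against KD, the dashed line marks equal changes, and 12 genes lie outside the axes. Gold points sit mostly above 0 and below the dashed line, with a median of 0.83 on the vertical axis, while *Evc2* lies above the line. The choice of the gold points by AS against WT favors a place below the line.

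Of the 5 largest rises in AS among genes averaging 100 or more normalized counts, *Evc2* was called in DM against KD, and the other 4 had smaller values there and were not called. The choice of the 5 by their values in AS against WT favors smaller values in DM against KD. *Col18a1* and *Col16a1*, which encode collagens, had log2 fold changes of 3.51 and 3.14 in AS against WT, and 1.62 (standard error 0.35, adjusted p = 0.115) and 1.02 (standard error 0.21, adjusted p = 0.115) in DM against KD. *Col16a1* stood at 94.2, 74.4, and 85.1 normalized counts in KD and 189.6, 120.0, and 202 in DM. *Trim47*, a ubiquitin ligase, had 3.17 and 1.3 (standard error 0.31, adjusted p = 0.166), and *Abca4*, a retinoid transporter, had 3.09 and 1.18 (standard error 0.36, adjusted p = 0.243). For *Col18a1*, *Col16a1*, *Trim47*, and *Abca4* all DM libraries lay above all KD libraries. Among the genes lower in AS, *Thbs1*, which encodes thrombospondin 1, had a log2 fold change of −1.86 in AS against WT and 0.36 (standard error 0.51, adjusted p = 0.82) in DM against KD, and *Gdf3*, a growth factor of the TGF-β family, had −1.3 and −0.24 (standard error 0.54, adjusted p = 0.892). For *Thbs1* the KD libraries were at 726, 881, and 386 and the DM libraries at 835, 470.0, and 1241, so the groups overlapped.

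The difference of the transgene effects was tested as an interaction over all 12 libraries. No gene had a higher effect in the *Kdm6b* heterozygotes and 2 had a lower effect (0.0126% of the genes), with 1087 genes (6.87%) at an unadjusted p under 0.05, whereas DESeq2 gave 5 higher and 61 lower. *Scarf1*, a scavenger receptor, stood at 199, 218, and 224 in WT and 523, 533, and 497 in AS, but at 251, 232, and 322 in KD and 190.3, 223, and 273 in DM. *Tmem215*, which encodes a membrane protein and is on the list of PRC2 target genes used below, stood at 51.2, 51.3, and 44.9 in WT and 308, 286, and 239 in AS, but at 35.2, 40.7, and 55 in KD and 23.6, 29.0, and 56.7 in DM. For both genes all AS libraries exceeded all WT libraries, and KD and DM overlapped. The interaction was −1.51 (standard error 0.21, adjusted p = 0.0431) for *Scarf1* and −2.77 (standard error 0.41, adjusted p = 0.0431) for *Tmem215* on the log2 scale, from edgeR's quasi-likelihood test. Y-linked transcripts were absent from all 3 WT libraries and present in 1 of 3 AS libraries, and with a term for them the interactions were −1.51 and −2.77, as without it, and the adjusted p of both genes was 0.0713. Both calls were also lost when any 1 library other than AS replicate 3 or DM replicate 3 was left out, at adjusted p values of up to 0.228. *Meis1*, a homeobox factor of HSCs, had a log2 fold change of 1.26 in AS against WT and 0.32 (standard error 0.13, adjusted p = 0.333) in DM against KD, with 369, 377, and 438 counts in KD and 459.6, 441, and 583 in DM. Its interaction of −0.94 had an adjusted p of 0.183.

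**Figure D3:**
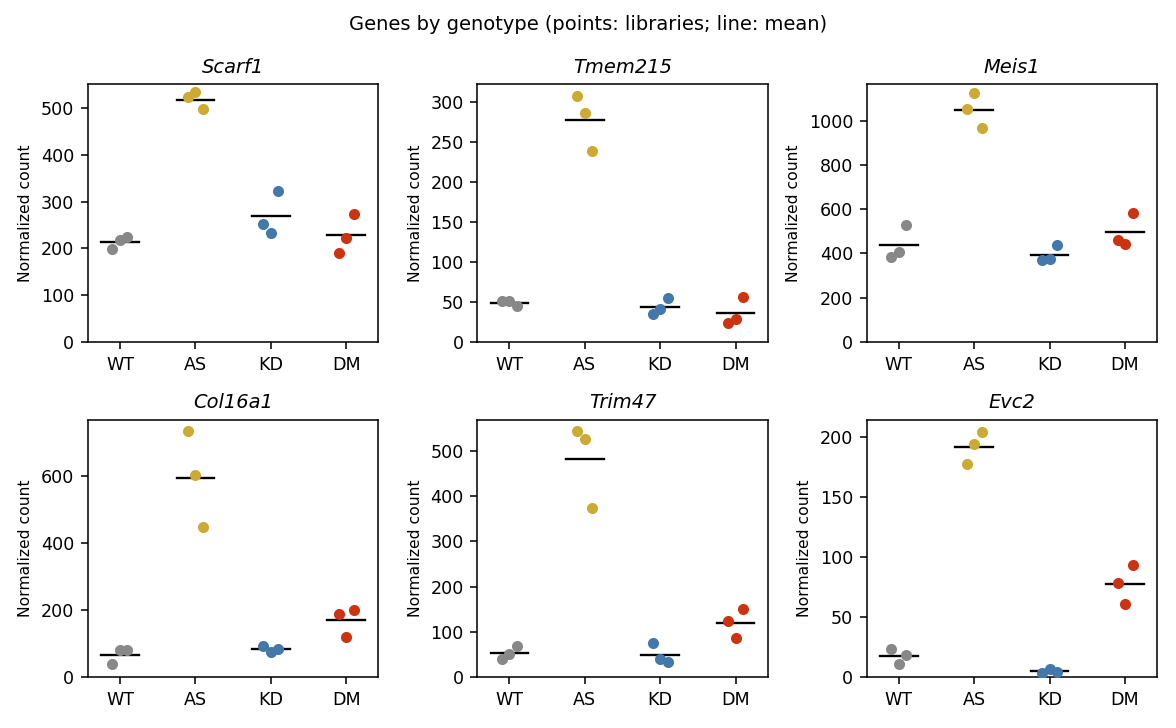
Normalized counts of 6 genes in the 4 genotypes; points are libraries, lines are means of 3, and each vertical axis starts at 0. *Scarf1*, *Tmem215*, and *Meis1* are highest in AS and lower in the other 3 genotypes, *Col16a1* and *Trim47* are high in AS with DM between AS and KD, and *Evc2* is at 78.9, 61.0, and 93.9 in DM and between 178 and 205 in AS.

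Genes of stem cells and megakaryocytes had mostly positive values in DM against KD. Megakaryocytes arise from stem cells in part directly and share several surface proteins with them. All 14 tested megakaryocyte genes had positive log2 fold changes, from 0.36 to 1.56, with a median of 0.72 beside 0.92 in AS against WT. The lowest, *Thbs1*, was at −0.02 without DM replicate 3. Without KD replicate 2 all 14 were positive, with a median of 0.91. Of the 14 genes, 11 had an unadjusted p under 0.05 (6.54% of all genes), 9 had all DM above all KD libraries (9.32% of all genes), and *Itga2b* alone was called. *Vwf*, which encodes von Willebrand factor, had 596, 579, and 429 normalized counts in KD and 1880.3, 1114, and 1731 in DM (log2 fold change 1.56, standard error 0.24, adjusted p = 0.135). *Plek*, the platelet protein pleckstrin, and *Itgb3*, the integrin partner of *Itga2b*, had 0.51 (standard error 0.10, adjusted p = 0.0771) and 0.49 (standard error 0.10, adjusted p = 0.107). Summed, the list ran from 5713 to 7071 in KD and from 8656 to 11055 in DM, and *Gp1bb* and *Gp6* did not pass the filter.

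Of 50 HSC genes, 39 had positive values, against 50.3% of all genes, 21 of them with an unadjusted p under 0.05 (6.54% of all genes) and none in the other direction, and the median was 0.36 beside 1.29 in AS against WT. Without KD replicate 2, 38 were positive, 23 with an unadjusted p under 0.05, and 1 had such a p in the other direction, at a median of 0.52. *Itga2b* and *Vwf* are on this list and on that of megakaryocytes. Of the 50 HSC genes, 22 are also among the 250 genes higher in AS than in WT, so the results of both sets overlap. *Mmrn1*, which encodes multimerin, rose in AS (2.20) and had 1.32 on the log2 scale (standard error 0.20, adjusted p = 0.0616) in DM against KD. *Slamf1*, which encodes CD150 of HSCs, had 16.3, 22.8, and 12.5 normalized counts in KD and 58.3, 47.0, and 64.0 in DM, and *Mycn*, a proto-oncogene, had 64.1, 71.4, and 68.5 in KD and 129, 105, and 182 in DM. Neither pair of groups overlapped, at log2 fold changes of 1.70 (standard error 0.32, adjusted p = 0.0667) and 1.02 (standard error 0.22, adjusted p = 0.115). *Prdm16*, a regulator of HSCs, had 37.7, 93.2, and 99.7 in KD and 119.5, 114, and 134 in DM (0.66, standard error 0.29, adjusted p = 0.389). *Gata2*, another stem cell factor, had 589, 832, and 571 in KD and 821, 616, and 869.6 in DM, which overlap (0.21, standard error 0.17, adjusted p = 0.653). *Hoxb5* was near the detection floor, at 0, 6.94, and 2.08 in KD and 8.85, 4.0, and 13.4 in DM (1.42, standard error 0.82, adjusted p = 0.502). The 14 tested genes of a leukemia stem cell score had a median of 0.28, with 9 positive, and 20 cytokine receptors of progenitors had a median of 0.05, with 14 positive.

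**Figure D4:**
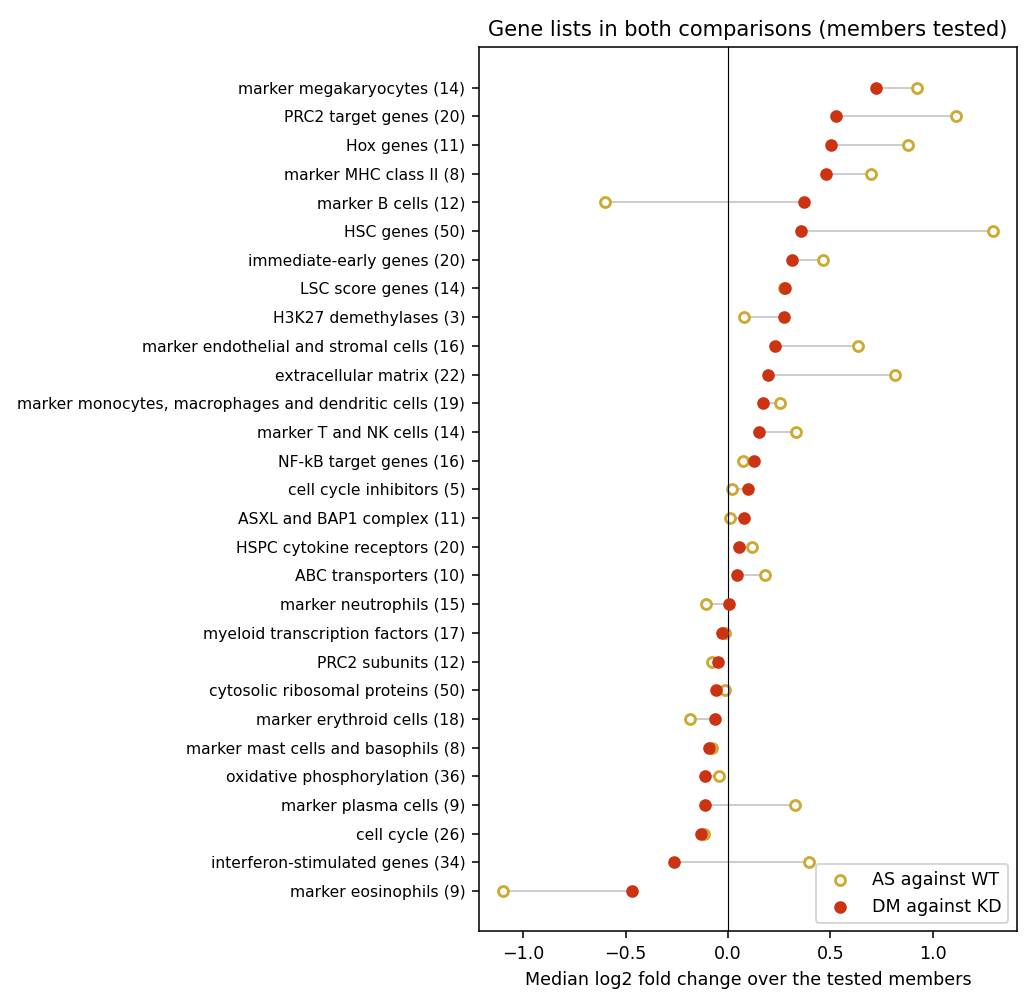
Median log2 fold change over the tested members of each list (number tested in parentheses) in DM against KD (red) and AS against WT (open gold), ordered by DM against KD. Megakaryocyte genes lie at 0.72 and 0.92, HSC genes at 0.36 and 1.29, eosinophil genes at −0.47 and −1.10, and interferon-stimulated genes at −0.26 and 0.40.

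Genes that PRC2 silences were sparse in these libraries. Of 67 developmental PRC2 target genes, 38 had 3 counts or fewer in every KD and DM library, and 20 passed the filter on low counts. Some of these passed only through the groups in which they were high, so their counts are a description. Among the 20, 17 had positive values and none was called, with a median of 0.52 beside 1.12 in AS against WT. *Sox18*, a factor of vessel development, had 2.51, 1.98, and 1.04 normalized counts in KD and 10.3, 13, and 13.4 in DM. Its raw counts in KD were 2, 2, and 1, so it passed the filter through the groups where it was high, and no fold is given for it. *Gata3*, a factor of T cells, had 13.8, 38.7, and 34.3 in KD and 81.9, 57.0, and 84.6 in DM (1.34, standard error 0.34, adjusted p = 0.176). Of 21 *Hox* genes 11 were tested, 8 with positive values and a median of 0.50, with an SD of 0.41 between libraries. Here too some members passed the filter through the groups where they were high, so these counts are a description. *Hoxb8* had raw counts of 0, 3, and 0 in KD and 41, 45, and 48 in AS. *Hoxa7* had 56.5, 55.5, and 67.5 in KD and 86.3, 80.0, and 87.7 in DM (0.50, standard error 0.21, adjusted p = 0.371), and *Hoxa5* had 1.08 (standard error 0.43, adjusted p = 0.343).

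None of the genes of the complexes around the mark was called. The 12 PRC2 subunits had a median of −0.05. *Phf1*, an accessory subunit, had the largest value at 0.49 (standard error 0.21, adjusted p = 0.376), with all DM libraries above all KD libraries, *Rbbp4* stood at −0.19 (standard error 0.08, adjusted p = 0.363), and *Ezh1*, a catalytic subunit, at 0.16 (standard error 0.09, adjusted p = 0.506). The 11 tested genes of the ASXL and BAP1 complex had a median of 0.08, with *Asxl2* highest at 0.18 (standard error 0.08, adjusted p = 0.39). The list of H3K27 demethylases holds *Kdm6b*, *Kdm6a*, and the Y-linked *Uty*, and its median of 0.27 is the value of *Kdm6b*.

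Interferon-stimulated genes were mostly lower in sign in DM than in KD, in groups that both had received pI:pC. Of 34 tested genes 29 had negative and 5 positive values, with a median of −0.26 beside 0.40 in AS against WT. Whether the AS and WT mice had received pI:pC is not stated in the paper. For 9 of the 34 all DM libraries lay below all KD libraries (9.57% of all genes), and 9 had an unadjusted p under 0.05 in this direction (5.67% of all genes). Without KD replicate 2, 7 were positive and 7 had an unadjusted p under 0.05 with a negative value, 1 with a positive one. None was called, and *Ifi27*, which was called, was not on the list. *Oasl1* and *Oas1a*, both of the family of oligoadenylate synthetases, had 77.9, 146, and 123 and 163, 213, and 239.8 normalized counts in KD. In DM *Oasl1* had 45.7, 44.0, and 54.7 and *Oas1a* 56.8, 112, and 98. The log2 fold changes were −1.27 (standard error 0.25, adjusted p = 0.0951) and −1.22 (standard error 0.24, adjusted p = 0.103). *Usp18*, which restrains interferon signaling, had −1.2 (standard error 0.31, adjusted p = 0.178). *Ifi27l2a* lies 1928 bases from *Ifi27* and had −1.63 (standard error 0.43, adjusted p = 0.182). In AS the replicates themselves were apart, with 170.0, 56.4, and 60.8 for *Oasl1*.

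**Figure D5:**
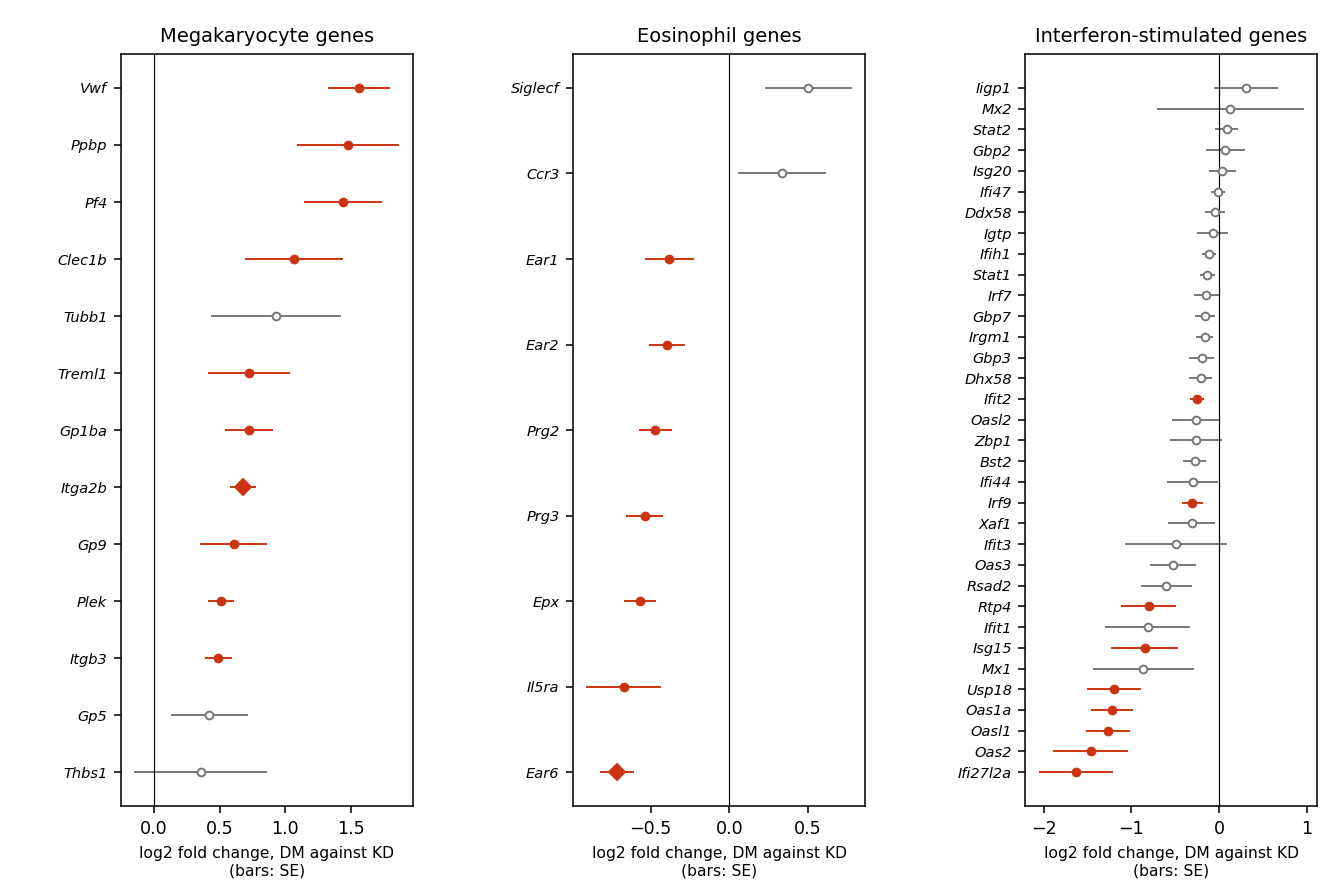
Log2 fold change of DM against KD (horizontal; bars are standard errors) for tested megakaryocyte, eosinophil, and interferon-stimulated genes, with 1 megakaryocyte gene not drawn. Red diamonds are called genes (*Itga2b*, *Ear6*), red circles have an unadjusted p under 0.05, and open circles do not; all megakaryocyte genes drawn lie right of 0 and 29 of 34 interferon-stimulated genes left of it.

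Eosinophil genes were mostly lower in sign on both backgrounds. Of 9 genes, 7 had negative values with an unadjusted p under 0.05 (5.67% of all genes), and *Ear6* was called. The other 2 had positive values. Without KD replicate 2, 6 had such a p with a negative value, against 6.02% of all genes. In that fit 1 (11.1%) had such a p with a positive value, against 7.05% of all genes, and the median was −0.46. *Epx*, eosinophil peroxidase, had 12130, 11856, and 9207 normalized counts in KD and 6934, 8005, and 7447 in DM. *Prg2*, the major basic protein of the granules, had 31371, 26633, and 23936 in KD and 17976, 21736, and 19349 in DM (log2 fold change −0.47, standard error 0.10, adjusted p = 0.135). *Prg3*, its close relative, had −0.54 (standard error 0.12, adjusted p = 0.146). In contrast the surface genes *Siglecf* and *Ccr3* had 0.50 and 0.34, with standard errors of 0.28. Summed, the list ran from 40408 to 52997 in KD and from 31233 to 37103 in DM, and the median was −0.47 beside −1.10 in AS against WT.

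Other lineages were read in the same way, and no member of the lists given here was called. The 15 neutrophil genes had a median of 0.0041, with 4 higher (6.54% of all genes) and 2 lower (5.67%) at an unadjusted p under 0.05, among them *Mmp8* of the late granules at 0.56 (standard error 0.21, adjusted p = 0.371) and *Mpo* of the early granules at −0.26 (standard error 0.11, adjusted p = 0.376). The medians were −0.03 for 17 myeloid transcription factors, −0.06 for 18 erythroid genes, −0.09 for 8 genes of mast cells and basophils, 0.15 for 14 genes of T and NK cells, and 0.17 for 19 genes of monocytes, macrophages, and dendritic cells. *Gfi1*, a repressor in granulocyte precursors, had −0.32 (standard error 0.09, adjusted p = 0.236), and *Hba-a2*, which encodes a hemoglobin chain, had −0.77 (standard error 0.24, adjusted p = 0.25). The 12 B cell genes had a median of 0.37, but the spread of this median between libraries was 0.54 (SD), and it was 0.10 without KD replicate 2. The erythroid median was 0.21 without that library, with the sign turned. *Ighm*, the IgM heavy chain, was at 7970, 22170, and 8600.5 in KD and at 3702, 3330, and 6346 in DM. All 8 MHC class II genes had positive values, with a median of 0.48 and an SD of 0.36 between libraries. The median was 0.23 for 16 endothelial and stromal genes beside 0.63 in AS against WT, and 0.20 for 22 extracellular matrix genes beside 0.82, or 0.027 without KD replicate 2.

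Genes of proliferation had small values, mostly negative. Of 26 cell cycle genes 25 had negative values, and for 16 of them all DM libraries lay below all KD libraries, against 9.57% of all genes. The median was −0.13 beside −0.12 in AS against WT, and none was called. *Pttg1*, which encodes securin, had the largest value at −0.56 (standard error 0.14, adjusted p = 0.182), and *Mcm5*, a subunit of the replicative helicase, had 9279, 8981, and 8512 normalized counts in KD and 7919, 7673, and 7525 in DM (−0.21, standard error 0.07, adjusted p = 0.265). *Mki67* was the exception in sign, at 0.12 (standard error 0.12, adjusted p = 0.711). Of 5 cell cycle inhibitors, *Cdkn1c*, which encodes p57 of quiescent stem cells, had 17.6, 12.9, and 16.6 in KD and 41.3, 27, and 39.2 in DM (1.2, standard error 0.34, adjusted p = 0.23), and the median of the 5 was 0.10.

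Housekeeping lists had small median values, while the median of the immediate-early genes was larger. Of 50 ribosomal protein genes 37 had negative values with a median of −0.06, and of 36 genes of oxidative phosphorylation 30 had negative values with a median of −0.11. Among the latter, *Ndufa4*, encoded in the nucleus, had −0.24 (standard error 0.07, adjusted p = 0.227), and *mt-Nd5*, encoded in mitochondria, had 0.24 (standard error 0.10, adjusted p = 0.371). All 20 immediate-early genes had positive values, with a median of 0.31 and an SD of 0.28 between libraries. *Junb*, an AP-1 subunit, had 0.35 (standard error 0.09, adjusted p = 0.182). The medians were 0.13 for 16 NF-κB target genes and 0.05 for 10 ABC transporters.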

How the data were processed

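RNA from LK cells of 12 mice, 3 per genotype, was sequenced by the study with 50-base reads. The authors trimmed reads with Trimmomatic, aligned them to mm10 with STAR, and deposited whole-number HTSeq counts per gene, without normalization. The annotation and the strand setting of the counting are not given in the sources used here, and the labels and the methods name different library kits and sequencers. Total counts of the 6 KD and DM libraries ran from 14451522 to 23482563.

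Genes were filtered with filterByExpr over the 4 genotypes (15825 kept). DM was compared with KD in the 6 libraries by edgeR 4.0.16 (TMM scaling, robust quasi-likelihood test, R 4.3.3), and a gene was called at a Benjamini-Hochberg adjusted p under 0.05 and a fold above 1.5. AS against WT was fitted in the same way, and the interaction over 12 libraries. DESeq2 1.42.0, other filters, RLE scaling, a replicate block, a term for Y-linked transcripts, and leaving out each library were the alternatives. Named genes were genes of the genotypes, a few HSC genes, and all called genes, with the next by p filling up the lower ones. Up to 4 members of each list were named by p. Also named were up to 5 of the largest called changes each way in AS against WT and in the interaction. These changes were taken among genes averaging 100 or more normalized counts. The groups had to be apart in AS against WT, but not in the interaction. *Kit*, *Cd3e*, *Txnip*, *Mki67*, *Siglecf*, and *Ccr3* are outside this rule and were chosen after their values were seen. Members and lists were chosen with earlier results of these data known. Positions are from GENCODE vM21, which matched 97.8% of tested genes. P-values measure the spread between mice. On simulated counts for DM against KD, 32.8%, 77.6%, and 95.5% of genes changed by 1.5-, 2-, and 4-fold were recovered, with 9 unchanged genes called. The changed genes were drawn only from genes above a minimum mean count, so these shares do not cover genes near the floor. Values of 1 gene on 3 of the lists are not reported here.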

Additional observations from a re-analysis of the deposited data

Results flagged for a closer look

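The effect of the transgene differed between both *Kdm6b* backgrounds for 2 genes, by the interaction term of edgeR's quasi-likelihood fit over 12 libraries. The interaction was −1.513 on the log2 scale for *Scarf1* (adjusted p = 0.0431) and −2.775 for *Tmem215* (adjusted p = 0.0431). Over 18 alternatives each, *Scarf1* was called in 6 and *Tmem215* in 5, at adjusted p values of 2.24e-08 to 0.228 and 3.2e-09 to 0.228.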

How the results depend on the processing

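In DM against KD the 9 higher genes became 87 with DESeq2, 1 with edgeR on 12 libraries, 59 with DESeq2 on 12 libraries, 181 without the filter on low counts, and 1 when Y-linked transcripts were a covariate. The 6 lower genes became 17, 2, 10, 30, and 1 in that order. Leaving out 1 library gave 3 to 26 higher and 2 to 8 lower. In the interaction, the 0 higher and 2 lower genes became 5 and 61 with DESeq2, 79 and 179 without the filter, and 0 and 0 with a mean count of at least 50 or the Y-linked covariate, and ran from 0 to 2 and from 0 to 8 when 1 library was left out. The median of the 250 genes higher in AS, 0.83, was 0.59 to 0.89 without 1 library. In other settings the genes higher in AS were called anew. The median of those genes was 0.53 with a mean count of at least 50, 0.61 with DESeq2, 0.82 with RLE scaling, and 0.76 with a replicate block. The cause was not tested.

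*Evc2* and *Chek2* were called in 14 of 14 alternatives, *Evc*, *Ighv1-64*, and *Rps4l* in 12, *Olfm4* in 11, *Cd163* and *Tjp1* in 10, *Jchain* and *Clec1a* in 9, *Sh3pxd2b* in 8, *Itga2b*, *Trpc6*, and *Ear6* in 7, and *Ifi27* in 6. With each of the 6 libraries dropped in turn, *Itga2b*, *Trpc6*, *Ear6*, and *Sh3pxd2b* were called in 2 and *Ifi27* in 1. The counts of list members without KD replicate 2 were added after seeing the data. No called gene changed sign. Signs reversed, for genes that were not called, in *Kdm6a* (0.0017) with the Y-linked covariate, *Xist* (0.27 with it), and *Gdf3* (0.013 with it). Leaving out 1 library in turn gave −8.24 to 0.35 for *Xist*, −0.019 to 0.65 for *Thbs1*, −0.63 to 0.18 for *Gdf3*, and −0.13 to 0.012 for *Cdkn2c*, with the sign turned without KD replicate 2, DM replicate 3, KD replicate 2, and DM replicate 1.

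The labels give replicate numbers, but same-numbered KD and DM libraries did not deviate together, with correlations of 0.0092, −0.212, and −0.0418. With a replicate block 12 genes were higher and 7 lower, 14 of the 15 among them. The interaction with this block gave 2 lower genes by edgeR's quasi-likelihood test. *Scarf1* was among them (adjusted p = 0.0443) and *Tmem215* was not (adjusted p = 0.0696). With 3 libraries a group, an exact permutation test of a single gene cannot go below p = 0.1.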
